A study of Mus musculus with 8 samples.

Results

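The 10 genes described here belong to the BCL2 family, and they were chosen by name (Bcl2, Bcl2l1, Mcl1, Bcl2l11, Bax, Bak1, Bbc3, Pmaip1, Bid and Bad) from the 52636 genes of a mouse RNA sequencing count table. BCL2 proteins decide whether the outer membrane of the mitochondrion stays intact. Anti-apoptotic members hold the pore-forming effectors in check, and the BH3-only members release or activate those effectors, after which cytochrome c escapes and caspases dismantle the cell. In T cells, naive cells lean on Bcl2 and Mcl1 for survival, activated cells induce Bcl2l1, and Bcl2l11 ends immune responses by killing cells whose antigen or cytokine supply has run out.

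Immune cells came from spleens and lymph nodes of mice 35 to 55 days old that showed no symptoms, and polyadenylated RNA was sequenced after 4 days of culture. All cells received anti-CD3 (1 μg/ml) with IL-23 (20 ng/ml), TGF-β (4 ng/ml), IL-6 (20 ng/ml) and IL-12 (3 ng/ml), a mix meant to give a TH1/TH17 state, so no unstimulated group exists. The 4 groups were females and males labelled TCR1640, a strain whose T cells carry a transgenic receptor against a myelin protein, and females and males labelled WT or SJL/J, the background strain. Each group had 2 count columns, which differed by little more than sampling noise (chi-square per degree of freedom 1.05 to 1.08 within groups, 3.12 to 17.1 between them). They were summed and counted as 1 sample, so n = 1 per group, no comparison has a replicate check and no p-value is given.

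Column totals lay between 3765291 and 5116467 counts. Sex-linked genes matched the sex labels in all 8 columns, but receptor segments went against the strain labels. A transgenic receptor fixes the segments most T cells use, yet Traj43 held 75.6% of the alpha joining segment counts of SJL/J females and 79.2% of those of males, while TCR1640 females and males had 5.04% and 2.91%. Wherever a strain is named, it is the label of a library. Between the strain labels the markers of several cell types moved as well. Summed levels of 10 naive and memory T cell markers were 1910 and 1963 CPM (counts for each 1000000 counts of the library) in females and males labelled TCR1640, against 971 and 953 under the SJL/J label. Of the 10, 8 and 7 were higher and apart by the 1.5-fold rule given below, against 18.0% and 22.2% of all genes tested in either direction. Among those not apart, Satb1, the most counted, stood at log2 ratios of -0.11 and 0.05, and Il7r at 0.42 and -0.17. The 10 cycling cell markers summed to 785 and 812 CPM against 1165 and 1219, and the 9 CD8 T cell markers, with Gzmk at 0 in every column, to 483 and 536 against 206 and 282. Most of the CD8 difference lay in Cd8a (1214 and 1699 counts against 193 and 217) and Cd8b1 (914 and 1113 against 169 and 185). Gzmb, the most counted, stood at log2 ratios of 0.16 and -0.01, and Prf1 at 0.42 and -0.01. Of the 6 CD8 markers tested, 3 were apart in each sex, beside the same shares of all genes. Neutrophil markers summed to 20.7 and 16.2 CPM against 65.6 and 161, with S100a8 and Elane at 0 under the TCR1640 label. Not all of that list went this way: Cxcr2, its 1 member tested, had 80 and 86 counts against 48 and 64, and Ly6g had 35 and 49 against 16 and 14. Platelet and erythroid markers summed to 39.6 and 39.0 CPM against 174 and 297, with Ppbp at 0 under the TCR1640 label. Among the erythroid genes, Hba-a1 had 69 and 85 counts against 36 and 119, Hbb-bs had 69 and 67 against 56 and 101, and Alas2 had 86 and 105 against 82 and 77. Mast cell and basophil markers summed to 65.3 and 70.8 CPM against 107 and 127. Its 3 tested genes went both ways: Gata2 had 18 and 36 counts against 198 and 217, and Hdc had 91 and 124 against 145 and 140. Kit, the most counted, had 380 and 512 against 128 and 137. Pan-T-cell markers were plentiful in every group (1093 to 1460 CPM) and CD4 markers lay between 213 and 300 CPM, while B cell markers summed to 28.7 to 51.2. In such bulk samples, fewer cells of a type and less RNA per cell cannot be told apart, and the part that cell mixture has in the differences below was not tested.

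Levels are given as CPM on library sizes scaled by TMM, a method that equalizes most genes between libraries, and differences as log2 ratios of summed counts. The 95% intervals beside them are exact and hold no error but that of counting. The word apart is used for a gene with a mean log2 CPM of 3 or more, a ratio of 1.5-fold or more in either direction and an interval clear of 0. In all, 10339 genes reached that level, all 10 members among them.

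Between strain labels the family split by gene rather than moving as a block. In males, 5 of the 10 genes were apart, against 22.2% of all genes tested: Bcl2, Mcl1 and Bcl2l11 were higher under the TCR1640 label (12.3% of all genes), and Bcl2l1 and Pmaip1 were lower (9.87% of all genes). The same 5 had intervals clear of 0, as did 57.6% of all genes. In females, 2 of 10 were apart, Bcl2l1 and Bak1, both lower under the TCR1640 label, against 18.0% of all genes (9.38% higher and 8.60% lower), a share near the background. The intervals of 5 members excluded 0 there, against 51.2% of all genes. Bcl2 (1.43-fold higher) and Pmaip1 (1.42-fold lower) fell just short of 1.5-fold in females. The median log2 ratio of the 10 genes was -0.04 in females and 0.03 in males, and that of all genes tested was 0.02 and 0.03.

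Between the sexes the members differed less. Under the TCR1640 label 1 of 10 genes, Pmaip1, was apart and lower in males, against 4.71% of all genes (3.28% lower and 1.43% higher), while 4 members had intervals clear of 0, against 35.5%. Under the SJL/J label 0 of 10 were apart, against 3.71% (1.13% higher and 2.58% lower), and 3 had intervals clear of 0, against 29.0%. For scale, the same rule called 1.56% of genes apart between the 2 columns of TCR1640 females, 1.08% in TCR1640 males, 1.46% in SJL/J females and 1.41% in SJL/J males. It called 0 of the 40 such pairs of columns over the 10 members, whose largest absolute log2 ratio was 0.45.

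**Figure D1:**
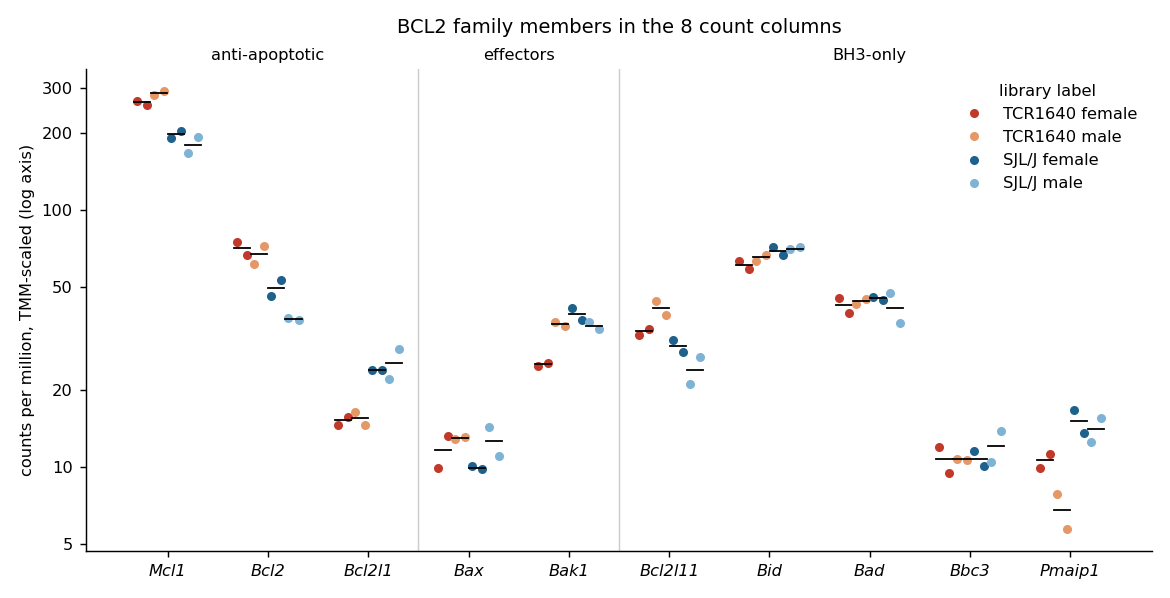
Levels of the 10 genes in CPM on a log axis, with 1 point for each of the 8 columns, coloured by library label, and a black line at the level of the 2 columns summed. Mcl1, Bcl2 and Bcl2l11 lie higher under the TCR1640 label and Bcl2l1 and Pmaip1 lower, while Bid, Bad and Bbc3 stay nearly level across the 4 groups.

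Mcl1 (ENSMUSG00000038612, chromosome 3, 95658788 to 95663176 on GRCm38) encodes a short-lived anti-apoptotic protein that T cells cannot do without. Its level was 267 and 257 CPM in the 2 columns of TCR1640 females, 281 and 291 in TCR1640 males, 191 and 204 in SJL/J females and 168 and 193 in SJL/J males. All 4 columns labelled TCR1640 therefore lay above all 4 labelled SJL/J. How often the columns of other genes separate in this way was not counted, so here and below it is description only. Between labels, 51.2% of all genes in females and 57.6% in males had intervals clear of 0. The log2 ratio between labels was 0.41 (0.32 to 0.50) in females and 0.67 (0.58 to 0.76) in males, or 1.33-fold and 1.59-fold. Per kilobase of exon, Mcl1 was the most abundant member in every group, at 52.6 to 83.7 CPM per kb, where the other 9 genes lay between 2.48 and 19.95.

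Bcl2 (ENSMUSG00000057329, chromosome 1, 106538178 to 106714274), the founding anti-apoptotic member, followed the same order of labels. Columns stood at 75.3 and 66.8 CPM in TCR1640 females, 61.7 and 72.4 in TCR1640 males, 46.1 and 53.4 in SJL/J females and 38.0 and 37.3 in SJL/J males. No column of one label reached those of the other. The log2 ratio was 0.51 (0.33 to 0.70) in females and 0.84 (0.64 to 1.04) in males. The TCR1640 groups at the top of this order did not differ beyond their counting interval, while the SJL/J male group lay below the SJL/J female group.

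Bcl2l1 encodes BCL-XL, the anti-apoptotic protein that T cells add on activation, and it went the other way (ENSMUSG00000007659, chromosome 2, 152780668 to 152831728). It stood at 14.6 and 15.6 CPM in TCR1640 females, 16.3 and 14.6 in TCR1640 males, 23.8 in both columns of SJL/J females, and 21.9 and 28.8 in SJL/J males. Every column labelled TCR1640 was below every column labelled SJL/J. The log2 ratio was -0.65 (-0.99 to -0.31) in females and -0.71 (-1.03 to -0.40) in males, and the intervals between sexes included 0 under either label. Without SJL/J male replicate 2 the male ratio was -0.47, under 1.5-fold, and Bcl2l1 was no longer apart in males.

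Because these 3 genes come from the same libraries, their count ratios need no scaling between libraries. Such a ratio carries the lengths of both genes, so only its change between libraries is read. The ratio of Mcl1 to Bcl2l1 counts was 17.3 (14.4 to 21) in TCR1640 females and 18.5 (15.7 to 21.9) in TCR1640 males, against 8.32 (7.17 to 9.68) in SJL/J females and 7.11 (6.12 to 8.28) in SJL/J males. For Bcl2 over Bcl2l1 the values were 4.69 (3.84 to 5.76), 4.35 (3.65 to 5.22), 2.10 (1.77 to 2.49) and 1.48 (1.23 to 1.78) in the same order. Neither ratio's counting intervals overlapped between labels. Since Bcl2l1 moved against Mcl1 and Bcl2, these 2 ratios restate the differences given above. The ratio of Mcl1 to Bcl2 moved little in comparison, between 3.69 (3.36 to 4.06) in TCR1640 females and 4.79 (4.22 to 5.45) in SJL/J males.

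**Figure D2:**
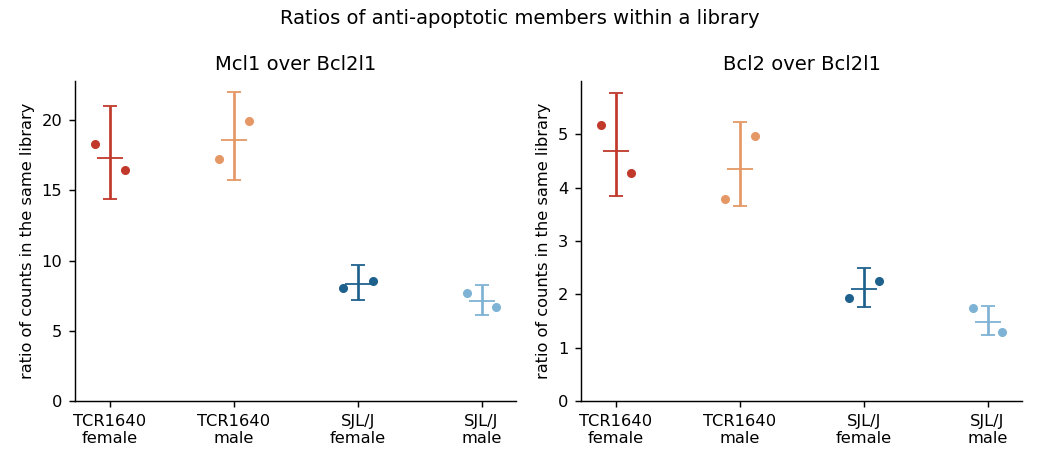
Ratios of counts within a library for Mcl1 over Bcl2l1 (left) and Bcl2 over Bcl2l1 (right), by library label, with points for the 2 columns and bars for the exact 95% counting interval of the summed counts. The groups labelled TCR1640 sit at 17.3 and 18.5 for the first ratio and those labelled SJL/J at 8.32 and 7.11.

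The effectors BAX and BAK form the pore in the mitochondrial membrane. Bak1 (ENSMUSG00000057789, chromosome 17, 27019810 to 27029009) stood at 24.8 and 25.3 CPM in TCR1640 females, and the other 6 columns lay between 34.3 and 41.5. In the order of the 4 groups, TCR1640 females alone differed from their neighbour beyond the counting interval. Its log2 ratio to SJL/J females was -0.65 (-0.91 to -0.39), while males of the 2 labels differed by 0.02 (-0.21 to 0.26). Without SJL/J female replicate 1, the female ratio was -0.54, under 1.5-fold, and Bak1 was no longer apart. With the counts of Ggnbp1, the gene opposite to it, added, it was -0.48.

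Bax (ENSMUSG00000003873, chromosome 7, 45461697 to 45466898) was thinly counted, with 83 to 128 counts in a group. Its columns ranged from 9.79 to 14.3 CPM, and no neighbours in the order of the 4 groups differed beyond their counting interval. Between labels the log2 ratio was 0.23 (-0.22 to 0.67) in females and 0.04 (-0.35 to 0.43) in males. Any difference of Bax was not detectable at this depth.

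Among the BH3-only genes, Bcl2l11, which encodes the potent killer BIM, is shown with its promoter because it moved with the labels in males. Bbc3, which encodes PUMA, is shown beside it because its window holds the same short motif and its level hardly moved. The motif is GTAAACA, which reads TGTTTAC from the opposite strand. It is a motif that FOXO transcription factors bind, and FOXO proteins are known to drive both genes when growth signals fall. The sequences are from RefSeq on GRCm38.p6, run 5′ to 3′ along the gene's strand from 250 bases before a start site to 50 bases after it, and have the motif in capitals. They lie at chr2:128125788-128126087 (plus strand, Bcl2l11) and chr7:16310011-16310310 (plus strand, Bbc3).
Bcl2l11: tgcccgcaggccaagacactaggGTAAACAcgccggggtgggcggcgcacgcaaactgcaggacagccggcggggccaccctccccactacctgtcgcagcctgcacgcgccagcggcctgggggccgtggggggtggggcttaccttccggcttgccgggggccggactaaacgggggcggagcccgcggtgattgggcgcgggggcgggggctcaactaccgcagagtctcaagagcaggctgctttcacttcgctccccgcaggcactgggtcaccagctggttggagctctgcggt
Bbc3: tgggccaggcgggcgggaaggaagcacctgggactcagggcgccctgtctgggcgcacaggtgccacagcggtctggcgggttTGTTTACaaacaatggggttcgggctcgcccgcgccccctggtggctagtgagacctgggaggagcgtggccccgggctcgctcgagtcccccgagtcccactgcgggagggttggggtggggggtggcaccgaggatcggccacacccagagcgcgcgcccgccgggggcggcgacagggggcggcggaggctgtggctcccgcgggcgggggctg

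The match lies 227 bases before the start site in Bcl2l11 and 167 bases before it in Bbc3. RefSeq windows, matched by symbol, were searched for 9 members, 15 windows in all, and Pmaip1 was left out of the search. Those of Bcl2l11 and Bbc3 shown here were the 2 that held the motif, as did 3.65% of the 32851 windows in the whole table. The STAT motif TTCNNNGAA, found in 8.30% of all windows, and the AP-1 motif TGANTCA, found in 7.81%, were in 0 of the 15, and the E-box CACGTG, in 7.15% of all, was in 1 window each of Bax and Bbc3. Both strands were searched, and these motifs read the same on either strand apart from the FOXO motif. A match is a run of letters and does not show that a factor binds there. Any part of FOXO factors in the levels of these genes was not tested.

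Bcl2l11 (ENSMUSG00000027381, chromosome 2, 128126038 to 128162547) stood at 32.6 and 34.5 CPM in TCR1640 females, 44.1 and 38.9 in TCR1640 males, 31.2 and 28.0 in SJL/J females and 21.1 and 26.8 in SJL/J males. The males of the 2 labels lay at the ends of the range, with the females between them. The log2 ratio between labels was 0.80 (0.54 to 1.05) in males, or 1.74-fold, and 0.19 (-0.07 to 0.45) in females. Foxo1, a transcription factor gene of quiescent T cells, stood at 0.94 (0.76 to 1.12) in males and 0.57 in females, but it overlaps Gm20402 on the other strand and is uncertain. Foxo3, the FOXO gene most often tied to Bcl2l11, stood at 0.41 (0.19 to 0.63) and 0.37 (0.14 to 0.60) in males and females and was not apart.

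Pmaip1 (ENSMUSG00000024521) encodes NOXA, a BH3-only protein that binds MCL1 and promotes its removal. It was at 9.90 and 11.2 CPM in TCR1640 females, 7.84 and 5.72 in TCR1640 males, 16.7 and 13.5 in SJL/J females and 12.5 and 15.5 in SJL/J males. Each label kept to its own side, and TCR1640 males were lowest of all. With 67 to 126 counts in a group the intervals are wide: the log2 ratio between labels was -0.51 (-0.93 to -0.10) in females and -1.05 (-1.51 to -0.60) in males, and the male difference of 2.07-fold was the largest of the family between labels. Pmaip1 and Mcl1 thus stood on opposite sides, and the ratio of Mcl1 to Pmaip1 counts was 24.8 (19.9 to 31.3) and 42.3 (33.2 to 54.8) in TCR1640 females and males, against 13.1 (10.9 to 15.9) and 12.8 (10.6 to 15.8) under the SJL/J label.

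Bid, Bad and Bbc3 showed no group apart. Bid (ENSMUSG00000004446, chromosome 6, 120891930 to 120916853), which couples death receptors to mitochondria after cleavage by caspase 8, ranged from 59.1 to 72.1 CPM over the 8 columns, with log2 ratios between labels of -0.18 (-0.35 to 0.00) and -0.11 (-0.28 to 0.05) in females and males. Bad (ENSMUSG00000024959, chromosome 19, 6941861 to 6951899), whose protein is silenced by phosphorylation in cells that receive growth signals, ranged from 36.3 to 47.4 CPM, with ratios of -0.08 (-0.30 to 0.13) and 0.09 (-0.12 to 0.30). Bbc3 (ENSMUSG00000002083, chromosome 7, 16308393 to 16318205), a p53 target, ranged from 9.43 to 13.8 CPM, with ratios of 0.00 (-0.45 to 0.44) and -0.17 (-0.59 to 0.24). In none of these 3 did neighbours in the order of the 4 groups differ beyond counting error. For Bbc3, with 84 to 106 counts in a group, the intervals are wide.

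**Figure D3:**
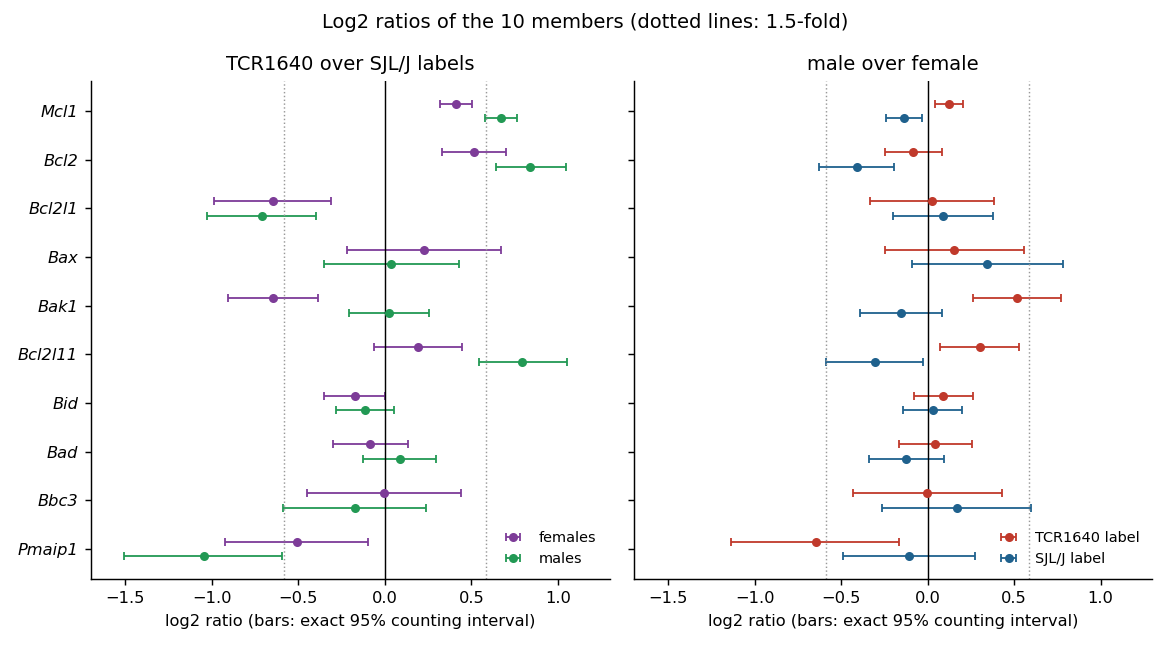
Log2 ratios of the 10 genes between strain labels (left, for each sex) and between sexes (right, for each label), with exact 95% counting intervals and dotted lines at 1.5-fold. Between labels the intervals of Mcl1, Bcl2, Bcl2l1 and Pmaip1 stay on 1 side of 0 in both sexes. Bcl2l1 lies past the line in both sexes, Mcl1, Bcl2, Bcl2l11 and Pmaip1 in males alone and Bak1 in females alone. Between sexes the lowest ratio is that of Pmaip1 under the TCR1640 label.

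Males and females were compared within each label, the question the study's title and design name. Under the TCR1640 label, Bak1 was 1.43-fold higher in males (log2 ratio 0.52, 0.26 to 0.77), Bcl2l11 stood at 0.30 (0.07 to 0.53) and Mcl1 at 0.12 (0.04 to 0.20). Pmaip1 was lower, at -0.65 (-1.13 to -0.17). That call rests on single columns: without TCR1640 male replicate 2 the ratio was -0.46, and without TCR1640 female replicate 2 it was -0.51, both under 1.5-fold. Bcl2 differed by -0.08 (-0.25 to 0.08) and Bcl2l1 by 0.02 (-0.33 to 0.38).

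Under the SJL/J label, Bcl2 was 1.33-fold lower in males, at -0.41 (-0.63 to -0.19), the largest sex difference of the family there. Bcl2l11 stood at -0.30 (-0.59 to -0.03) and Mcl1 at -0.14 (-0.24 to -0.03), the reverse of their sign under the TCR1640 label. Bax was at 0.34 (-0.09 to 0.78) and Pmaip1 at -0.11 (-0.49 to 0.27). In the same comparison the summed neutrophil markers were 161 CPM in males and 65.6 in females, and platelet and erythroid markers 297 and 174, whose part in these ratios was not tested.

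The sex ratios of the 2 labels were then subtracted, TCR1640 minus SJL/J. Bak1 (0.67, 0.33 to 1.01) and Bcl2l11 (0.60, 0.25 to 0.96) differed by more than 1.5-fold, 2 of 10 genes against 8.82% of all genes tested (4.38% higher and 4.44% lower). The intervals of 4 members excluded 0, against 29.1%. Bcl2 stood at 0.33 (0.06 to 0.60), Mcl1 at 0.26 (0.13 to 0.39) and Pmaip1 at -0.54 (-1.13 to 0.05). Without SJL/J female replicate 1 the difference was 0.58 for Bak1 and 0.51 for Bcl2l11, neither past 1.5-fold, and that of Pmaip1 was -0.71. Without the number 1 columns of TCR1640 males or SJL/J males, Bcl2l11 stood at 0.49 and 0.47.

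Bcl2, Bak1, Bid and Bad have exons that overlap those of another gene on the opposite strand. The library kit marks strand, the strand setting of the counting is not given in the sources used here, and counts of such partners can hold reads of each other. Bcl2 shares 558 bases with the antisense RNA D630008O14Rik (chromosome 1, 106541943 to 106575045), which held 5.70 times as many counts. Bak1 shares 437 bases with Ggnbp1 (chromosome 17, 27017987 to 27037624), a gene known from the testis, which held 9.02 times as many. Bid and Bcl2l13 share 628 bases and Bad and Gpr137 share 524, with 0.318 and 0.405 partner counts for each count of the member. The remaining 6 genes have no such partner. Genes that overlap another on the opposite strand, or have no position, took 68.1% to 69.9% of all counts, so the strand question touches the whole table.

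Values of the partners lay near those of Bcl2 and, less closely, of Bak1. D630008O14Rik stood at 0.66 (0.59 to 0.74) between labels in females and 0.87 (0.79 to 0.96) in males, beside 0.51 and 0.84 for Bcl2. Between sexes it stood at -0.40 (-0.49 to -0.31) under the SJL/J label, beside -0.41, and at -0.19 (-0.26 to -0.12) under the TCR1640 label, beside -0.08. Ggnbp1 was at -0.46 (-0.54 to -0.38) between labels in females, beside -0.65 for Bak1, and at -0.17 (-0.25 to -0.10) in males, beside 0.02. Its sex ratio under the TCR1640 label was 0.14 (0.06 to 0.22), well below the 0.52 of Bak1. With partner counts added, the sex ratio of Bak1 under that label was 0.18 and its difference between labels 0.32, so neither reached 1.5-fold. Between labels in females the same setting gave -0.48 for Bak1, which was then no longer apart, and 0.64 for Bcl2, which then was. The 2 members apart in females therefore became Bcl2, higher, and Bcl2l1, lower.

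**Figure D4:**
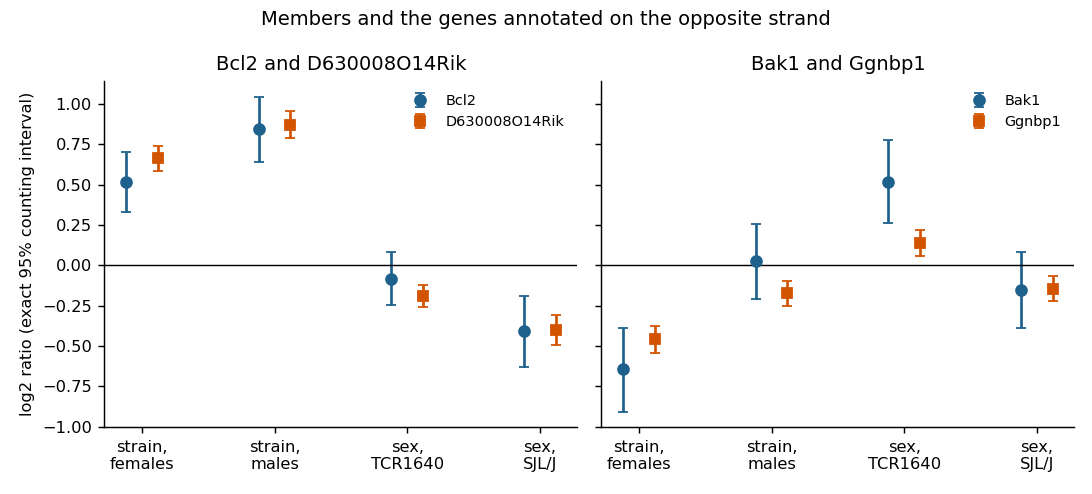
Log2 ratios of Bcl2 with D630008O14Rik (left) and Bak1 with Ggnbp1 (right), the genes annotated opposite to them, in the 4 comparisons, with exact 95% counting intervals. The pair at Bcl2 stays on the same side of 0 throughout, and the pair at Bak1 is farthest apart for the sex ratio under the TCR1640 label, 0.52 against 0.14.

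The rest of the cell death pathway was read from 6 further lists of genes with members tested. The 5 other anti-apoptotic family members (Bcl2l2, Bcl2l10 and the near-identical copies Bcl2a1a, Bcl2a1b and Bcl2a1d, whose reads could be split between copies) had at most 43 counts in any group and none reached the level for testing. Of 10 other family members that are pro-apoptotic or contain a BH3 motif, 4 were tested. Of these 4, Bnip3, a mitochondrial protein of hypoxia and mitophagy that overlaps Gm45507, was lower under the TCR1640 label in males (-0.78, -1.09 to -0.46), and 0 were apart in females. The median log2 ratio of the 4 was 0.07 in females and -0.05 in males, where all genes tested stood at 0.02 and 0.03, as for every list below.

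Downstream of the pore, the apoptosome gene Apaf1, whose protein assembles with cytochrome c, was lower under the TCR1640 label, at -0.91 (-1.20 to -0.62) in females and -0.80 (-1.06 to -0.53) in males. Casp6, an executioner caspase, stood at -0.88 (-1.14 to -0.63) and -1.26 (-1.52 to -0.99). Casp4, an inflammatory caspase, was higher in females at 0.86 (0.40 to 1.33). In all, 1 of 11 tested caspase and apoptosome genes was higher and 2 lower in females, and 0 were higher and 3 lower in males, with medians of 0.06 and -0.13. Of all genes tested, 9.38% were higher and 8.60% lower in females and 12.3% and 9.87% in males, 18.0% and 22.2% in either direction, which is the background for each list. Among 5 tested inhibitors of apoptosis, Birc5 (survivin, which also serves mitosis) was lower at -0.74 and -0.67, beside the lower cycling markers, and Birc2 was higher in females at 0.83 (0.56 to 1.09). The list's median was 0.23 in females and -0.09 in males.

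Of these lists, that of death receptor genes held the largest ratios between labels. Fas, the receptor that kills activated lymphocytes, stood at 1.89 (1.44 to 2.36) in females and 1.29 (0.89 to 1.71) in males, with 184 and 207 counts under the TCR1640 label against 53 and 67. Tnfrsf10b, the TRAIL receptor, was higher at 0.60 and 0.85. Ripk3, a kinase of necroptosis, was lower at -1.74 (-1.96 to -1.52) and -1.05 (-1.26 to -0.84). Of the 10 tested genes of this list 3 were higher and 1 lower in females, and 2 and 1 in males, beside 18.0% and 22.2% of all genes apart, with medians of 0.25 and 0.34. Between sexes, Tnfrsf10b was lower in males under both labels, at -0.68 (-1.07 to -0.29) and -0.93 (-1.48 to -0.40), and Tnf was higher in SJL/J males at 0.74 (0.22 to 1.26).

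Of 9 tested genes of p53 and its targets, Trp53inp1, a stress gene, was higher under the TCR1640 label at 0.72 (0.47 to 0.97) in females and 1.04 (0.76 to 1.31) in males. Cdkn1a, the cell cycle inhibitor p21, was lower in males at -1.13 (-1.38 to -0.88), as was Trp53 itself at -0.68 (-0.98 to -0.39). The p53 targets among the 10 members, Bax, Bbc3 and Pmaip1, stood at 0.04, -0.17 and -1.05 in males, with the intervals of Bax and Bbc3 spanning 0. The list had 1 gene higher and 0 lower in females and 1 higher and 2 lower in males, beside 18.0% and 22.2% of all genes apart, and its median was 0.35 and -0.07. Ei24, which overlaps Gm26787, was higher in SJL/J males than females at 0.67.

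Among 24 regulators of the family, Il2ra, the high-affinity chain of the IL-2 receptor that sustains activated T cells, was lower under the TCR1640 label at -0.99 (-1.06 to -0.92) in females and -1.05 (-1.11 to -0.99) in males. Vdac1, a channel of the outer mitochondrial membrane, was lower at -0.74 and -0.65. Pim2, a survival kinase induced by cytokines, was higher at 0.77 (0.55 to 1.00) and 0.81 (0.59 to 1.03), and Il2rg, the common gamma chain, was higher in females at 0.62 (0.35 to 0.90). Il7r, the receptor that maintains Bcl2 in resting T cells, was not apart, at 0.42 and -0.17. In this list 2 genes were higher and 3 lower in females, and 2 and 2 in males, shares near the 18.0% and 22.2% of all genes, with medians of -0.09 and 0.01, while between sexes Bag3, a co-chaperone, was higher in TCR1640 males at 0.70 (0.21 to 1.21).

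**Figure D5:**
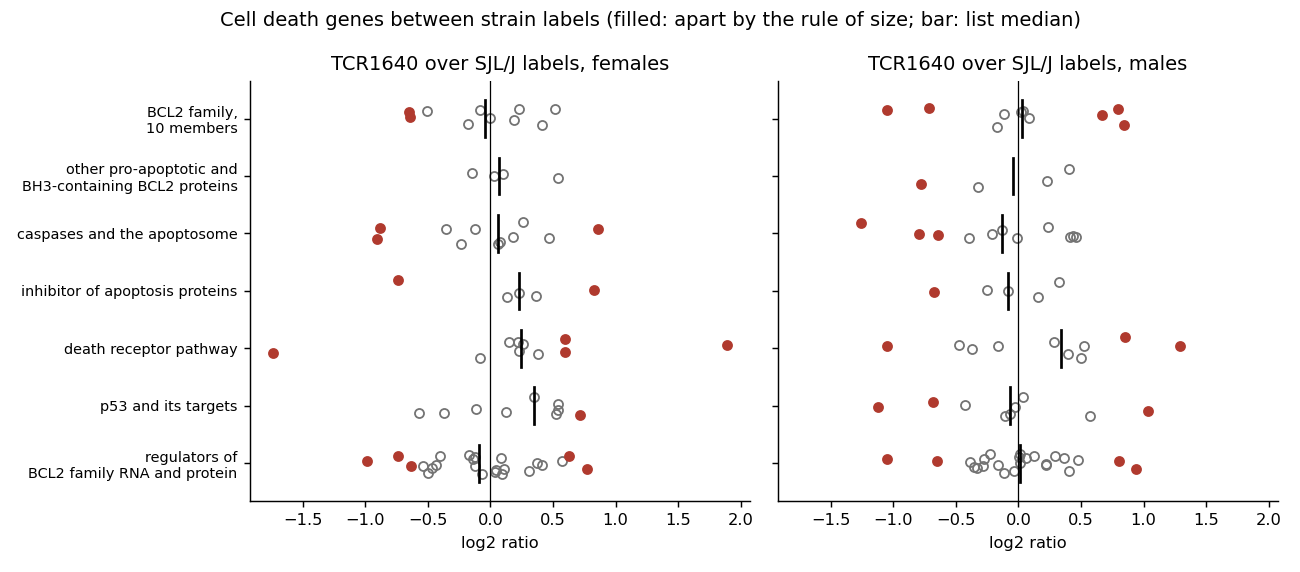
Log2 ratios between strain labels of the genes tested in each cell death list, in females (left) and males (right), with filled points for genes apart, open points for the others and a bar at each list's median (vertical spread within a list is only for legibility). The outermost points are Fas at 1.89 and Ripk3 at -1.74, both in females.

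For the 6 members whose highest and lowest groups differed by at least 1.5-fold, the genes of most similar pattern were found by the Euclidean distance of centred log2 CPM over the 4 groups, among 2089 genes without overlap and with a mean log2 CPM of at least 5. With 4 points and so many candidates, close matches are to be had for any pattern. The nearest to Bcl2 were Clstn1 (distance 0.08), Mllt3 (0.11) and Rnf19a (0.14), and the nearest to Mcl1 were Igf2r (0.04), Gm15753 (0.05) and Abtb2 (0.05). For Bcl2l1 they were Alyref (0.01), an mRNA export factor, Pole3 (0.03), a subunit of DNA polymerase epsilon, and Gm6368 (0.03). Bcl2l11 was matched by Nfatc1 (0.10), a transcription factor of receptor signalling, Pgam2 (0.10) and Plcb2 (0.11). Bak1 was matched by Rcc2 (0.11), Gm7823 (0.12) and Snd1 (0.12), and Pmaip1 by Gm10800 (0.12), the chemokine receptor gene Ccr2 (0.17) and the pore-forming gasdermin gene Gsdme (0.21).

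An edgeR quasi-likelihood fit of the 8 columns, at an adjusted p threshold of 0.05, gives a second count. It compares libraries whose spread may be technical, not conditions. Between labels it called 5 of 10 members in females, where 36.0% of 15793 genes were called, namely Bcl2 and Mcl1 higher and Bcl2l1, Bak1 and Pmaip1 lower. In males it called 5, where 42.8% were called, namely Bcl2, Mcl1 and Bcl2l11 higher and Bcl2l1 and Pmaip1 lower. Between sexes it called Bak1 higher and Pmaip1 lower in TCR1640 males, where 16.2% of genes were called, and Bcl2 lower in SJL/J males, where 11.3% were called. DESeq2 did not call that last gene, nor Pmaip1 in females between labels or between TCR1640 sexes.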

How the data were processed

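RNA was sequenced from 8 libraries, 2 for each of 4 groups, as their titles give them. The values deposited are raw counts, whole numbers for each Ensembl gene. Bowtie2, HTSeq, bcl2fastq 2.17 and mm10 appear in the submitters' processing notes. How the counting treated strand, and with which annotation release, is not given in the sources consulted. The labels do not say if libraries of 1 group stem from different mice, so their spread may be technical. Symbols, positions and exon overlaps came from GENCODE M21 on GRCm38, the assembly mm10 names, and 147 identifiers had no entry.

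The chi-square of each pair of columns used genes with a symbol in the annotation and at least 20 counts over the pair. It left out the gene Gm43333. Counts were summed by group and scaled by TMM (edgeR 4.0.16, R 4.3.3). Intervals are Clopper-Pearson intervals of the first group's share of the counts, and that of a difference of ratios is a normal approximation from inverse counts. PCR copies are not independent molecules, so intervals cover counting error only. The column fit used filterByExpr and Benjamini-Hochberg adjustment, with limma 3.58.1 and DESeq2 1.42.0 among the alternatives. Methods were tested on simulated data. The members, lists and rules were chosen with earlier results of these data known. The gene pairs of the count ratios were not fixed by those rules. Besides the members, the text names the genes of each list that were apart with the largest ratios, at most 2 in each direction and comparison. It also names markers at 0, close matches and the most counted markers of some lists. Chosen after their values were seen were Foxo3, Il7r, Cxcr2, Ly6g, Hba-a1, Hbb-bs, Alas2, S100a8, Elane, Ppbp, Cd8a, Cd8b1, Prf1, Gata2 and Hdc.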

Additional observations from a re-analysis of the deposited data

Results flagged for a closer look

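Mcl1 and Bcl2l11 had sex ratios of opposite sign under the 2 labels, with each counting interval excluding equality. The counting intervals of this difference between labels are given above. It was not tested against the spread between samples, since each group is 1 sample. For Mcl1 the male-to-female log2 ratio was 0.12 (0.04 to 0.20) under the TCR1640 label and -0.14 (-0.24 to -0.03) under the SJL/J label, a difference of 0.26. Leaving out single columns gave 0.07 to 0.19 under the TCR1640 label and -0.27 to -0.06 under the SJL/J label, with -0.27 without SJL/J male replicate 2. For Bcl2l11 the ratios were 0.30 (0.07 to 0.53) and -0.30 (-0.59 to -0.03), a difference of 0.60. With single columns left out they ranged from 0.18 to 0.39 and from -0.51 to -0.17. No member's groups hold enough samples to look for an outlying library.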

How the results depend on the processing

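Leaving aside settings that could not act on a ratio (a column of a group outside the comparison, partner counts for a member without a partner), 460 log2 ratios of the members were recomputed. Of these, 454 stayed inside the counting interval of the reported value, 6 moved out of it and 0 genes called apart changed sign; staying inside does not mean that a call held. The 6 were Mcl1 in males between labels (0.80) and in SJL/J sexes (-0.27) without SJL/J male replicate 2, Bad in the same comparisons (0.31 and -0.35) without SJL/J male replicate 1, and Bak1 with partner counts, given above. Other scaling factors moved the median of all genes by at most 0.05 in log2. The members apart depend more on the rule. At 2-fold they were 0 between labels in females, 1 in males (Pmaip1), 0 between TCR1640 sexes and 0 for the difference of sex ratios. Of all genes tested, 4.86%, 6.63%, 0.58% and 1.07% were apart at 2-fold in the same order. With a floor of mean log2 CPM 5 they were 1, 2, 0 and 1, against 14.5%, 19.9%, 2.6% and 4.63% of all genes. Of the members, only Bcl2, Mcl1, Bak1, Bid and Bad reached that floor, so the others could not be called. Column totals alone, and partner counts added, each left 1 for the difference of sex ratios, against 8.92% and 7.77% of all genes. With partner counts the 2 members apart in females were Bcl2 and Bcl2l1 in place of Bcl2l1 and Bak1. Leaving out single columns gave 1 to 4 in females (1 without SJL/J female replicate 1 and 4 without replicate 2), 4 to 5 in males (4 without SJL/J male replicate 2, Bcl2l1 lost), 0 to 1 in TCR1640 sexes, 0 in SJL/J sexes and 1 to 2 for the difference. The shares of all genes apart were then 18% to 19.3%, 22.1% to 23.6%, 4.66% to 6.12%, 3.72% to 4.96% and 9.02% to 9.76%.

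For the column fit, DESeq2 called 3077, 3968, 921 and 579 genes in place of 5690, 6755, 2562 and 1782 for labels in females, labels in males, TCR1640 sexes and SJL/J sexes, and among the members 1 in TCR1640 sexes and 0 in SJL/J sexes, where edgeR called 2 and 1. Leaving out single columns gave 4436 to 5772, 5514 to 6873, 1630 to 2649 and 1109 to 1780 genes, and 4 to 5, 5 to 5, 1 to 3 and 0 to 2 members; the column left alone in its group is taken to vary like the others. A fit of the 4 SJL/J columns alone called 2 members. Columns of the same number did not deviate together (r between -0.00256 and 0.0283 for 6 pairs of groups over 10339 genes). With the replicate number as a block the fit called 5746, 6818, 2657 and 1894 genes and 5, 5, 2 and 1 members, which changed no count by 1.5 times. The cause of these changes was not tested. Depth limits Bax, Bbc3 and Pmaip1 most, each with under 130 counts in a group.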
